A study of Mus musculus with 12 samples.

Results

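Smooth muscle contractile genes were followed across 4 groups of mouse small intestine, beside Acta1, the actin of skeletal muscle. The genes were chosen by symbol as the rows for Acta2, Actg2, Myh11, Des, Tagln, Cnn1, Mylk, Lmod1, Synm and Acta1, which make 10 of the 55484 genes in the deposited table. Expression is given in FPKM, a fragment count divided by transcript length and by a measure of library size. Levels of different genes can thus be set side by side per length. RNA sequencing had been done on 12 libraries, 3 in each group. The Melphalan group had received melphalan, an alkylating drug that crosslinks DNA. The Mel+MSC and MSC+Mel groups had received melphalan and mesenchymal stem cells, which the series title describes as human cells from umbilical cord. The Control group is labelled as wild type. The labels give no dose, time, strain, sex, age or number of animals, and do not explain the word order in Mel+MSC and MSC+Mel, so both serve here as names only. They do not say whether the 3 libraries of a group came from separate animals, so the p-values speak only of the spread among libraries, and that spread may be technical.

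Smooth muscle forms the thin muscularis mucosae and the circular and longitudinal coats that mix and propel the contents of the gut. It also surrounds the arterioles of the gut wall. In these cells calcium activates myosin light chain kinase, whose phosphorylation of myosin lets it pull on filaments built from smooth muscle actins, and intermediate filaments link the contractile units to dense bodies. Many of these genes carry CArG boxes, the sites bound by serum response factor, and the muscle actins are among the factor's classic targets. The libraries are bulk tissue, in which fewer muscle cells and less RNA per muscle cell cannot be told apart.

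The promoter sequences of Acta1 and Acta2 are shown because the first of these actins separated the drug-treated libraries from Control in level and the second did not. Each is the RefSeq window on GRCm38.p6, read on the minus strand from 250 bases before the annotated start to 50 bases after it. Capitals mark CArG boxes, here CC, then 6 bases of which at most 1 is not A or T, then GG, and the word TATAA. The Acta1 window lies at chr8:123894726-123895025 and the Acta2 window at chr19:34255324-34255623.
Acta1: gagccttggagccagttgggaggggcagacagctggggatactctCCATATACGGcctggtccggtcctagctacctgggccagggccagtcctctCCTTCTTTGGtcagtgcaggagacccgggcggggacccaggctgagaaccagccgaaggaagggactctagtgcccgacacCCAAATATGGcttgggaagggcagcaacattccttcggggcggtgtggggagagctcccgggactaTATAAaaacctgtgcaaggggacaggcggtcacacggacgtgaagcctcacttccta
Acta2: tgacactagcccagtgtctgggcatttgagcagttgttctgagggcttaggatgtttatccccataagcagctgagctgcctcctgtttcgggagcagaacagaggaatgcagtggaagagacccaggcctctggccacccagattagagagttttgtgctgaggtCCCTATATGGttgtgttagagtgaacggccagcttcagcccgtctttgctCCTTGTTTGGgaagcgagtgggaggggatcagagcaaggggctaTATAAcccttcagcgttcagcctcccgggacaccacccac

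The Acta1 window held 3 such CArG boxes, of which the one at positions -73 to -64 from the start had a core of A and T alone. The Acta2 window held 2, at -84 to -75 and at -34 to -25, each with 1 core base that is not A or T. Searched on both strands, a CArG box with a core of A and T alone was present in 1.63% of the 32851 mouse promoter windows of the same length, and one with at most 1 other core base in 9.98%. TATAA, searched in the same way, was present in 24.9%, and it stood at -7 to -3 in Acta1 and at 11 to 15 in Acta2, counted from the annotated start. GENCODE M21 places the gene starts elsewhere, at 123894751 for Acta1 and 34255590 for Acta2. All positions given here thus depend on the RefSeq starts. CATTCC, the core of the site bound by TEAD factors, was present in 14.7% of windows. It was found at -46 to -41 in Acta1 and on the other strand in Acta2, and also in the windows of Lmod1 and Mylk. Synm held 1 CArG box with 1 other core base at -239 to -230, and none of these words was found in the windows of Des and Cnn1. Windows were at hand for 7 of the 10 genes, the others being Actg2, Myh11 and Tagln. The looser CArG box and TATAA were searched after the sequences had been seen, and a match is a description of the letters.

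All 10 genes passed the filter on low values (1 FPKM or more in at least 3 libraries), as did 12847 genes in all, which were tested together. The smooth muscle genes exceeded 1 FPKM in all 12 libraries. Acta1 did so in all but Control 1, and its drug-treated libraries alone would have carried it through the filter. Calls are from limma's moderated test on log2(FPKM + 1), adjusted by the Benjamini-Hochberg method over all tested genes, at an adjusted p under 0.05. Fold changes are on that log2 scale, where the 1 FPKM added to each value shrinks the change of genes at low levels. The tissue label was checked against 14 epithelial markers, which were all expressed and whose levels summed to between 8330 and 44800 FPKM in a library. The lowest rank correlation between libraries of a group was 0.829 in Melphalan (between Melphalan 1 and Melphalan 2) and 0.907 in Mel+MSC (between Mel+MSC 1 and Mel+MSC 3), against 0.972 in MSC+Mel and 0.943 in Control. Melphalan 2 had a summed level of 12 leukocyte markers of 999 FPKM, against 31.3 to 189 FPKM in the other libraries. Melphalan 1 had a summed level of 7 mesothelial markers of 36.1 FPKM, against 5.02 to 13.4 FPKM elsewhere, and of 8 adipocyte markers of 260 FPKM, against 76.0 to 158 FPKM elsewhere, and for Acta2, Actg2, Myh11, Des, Cnn1, Lmod1 and Synm it was the highest Melphalan library. Results that rest on 1 library are given with and without it.

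Acta1 was the member that differed most between the groups. It encodes the alpha actin of skeletal muscle (ENSMUSG00000031972, chromosome 8, 123891769 to 123894751, minus strand, GRCm38), and is expressed at low levels in smooth muscle. Its level was 16.0, 4.14 and 17.4 FPKM in the Melphalan libraries, 7.91, 8.76 and 4.40 FPKM in the Mel+MSC libraries and 13.5, 21.7 and 11.2 FPKM in the MSC+Mel libraries, against 0.878, 1.11 and 1.07 FPKM in the Control libraries. All 9 libraries of drug-treated mice were above the highest Control library, the lowest of them by 3.75 times. The means were 12.5 ± 7.3 FPKM in Melphalan, 7.02 ± 2.31 in Mel+MSC, 15.5 ± 5.52 in MSC+Mel and 1.02 ± 0.123 in Control (SD, n = 3 each). The drug-treated groups spread widely, with a coefficient of variation of 58.2% in Melphalan, 32.9% in Mel+MSC and 35.7% in MSC+Mel, against 12.1% in Control.

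Acta1 rose in Melphalan against Control, by a log2 fold change of 2.54 (SE 0.44, limma adjusted p = 0.0224), and in MSC+Mel against Control, by 2.98 (SE 0.44, limma adjusted p = 0.0358). The ratio of the group means was 12.3 and 15.2. In Mel+MSC against Control the fitted difference was 1.95 (SE 0.44, 95% interval 0.98 to 2.91) and the ratio of the means 6.9. This difference was not called (limma adjusted p = 0.586, unadjusted p = 0.000943), although all 3 Mel+MSC libraries lay above all 3 Control libraries. Over the 4 groups together, limma's moderated F test called Acta1 (adjusted p = 0.0365) and 0 of the 9 smooth muscle genes, where it called 74 of all tested genes (0.576%) and 2406 had an unadjusted p under 0.05. Of the smooth muscle genes, Des came nearest (adjusted p = 0.0992), followed by Synm (0.195), and these 2 were the smooth muscle genes with an unadjusted F p under 0.05. Among the drug-treated groups, Acta1 differed by 0.44 (95% interval -0.53 to 1.40, limma adjusted p = 0.574) in MSC+Mel against Melphalan and by -0.59 (-1.56 to 0.37, adjusted p = 0.572) in Mel+MSC against Melphalan. Without Melphalan 2, the lowest of its group, the first of these was -0.16 (adjusted p = 0.757). In MSC+Mel against Mel+MSC it was 1.03 (0.07 to 2, adjusted p = 0.403), with no overlap of the libraries, as in 11.7% of all tested genes.

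The 2 calls of Acta1 against Control did not hold whenever 1 library was left out. In Melphalan against Control the adjusted p of Acta1 was 0.0104 without Melphalan 2 and 0.0326 without Control 3. The call was lost when Melphalan 1 (0.0568), Melphalan 3 (0.0802), Control 1 (0.113) or Control 2 (0.0913) was left out. In MSC+Mel against Control leaving out any 1 of the 6 libraries ended the call, with adjusted p-values of 0.0712 to 0.238, while the fold change stayed between 2.72 and 3.17. The fold change in Melphalan against Control ran from 2.22 to 3.14 in the same way. The labels do not say what a replicate number marks, but in Melphalan and Control all 3 same-numbered pairs deviated together (r 0.124 to 0.233). When the fit held a term for these numbers (a replicate block), Acta1 had an adjusted p of 0.0595 in Melphalan against Control, so that the call was lost. In MSC+Mel against Control, where 0 of 3 pairs did so, it was 0.0927, and 0.102 in the F test. The F test without a block called Acta1 without Melphalan 2 (adjusted p = 0.00867) or Mel+MSC 3 (0.027) and lost it without any other library (0.0586 to 0.113).

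Set against Acta2, the smooth muscle actin of the same library, the amount of Acta1 was higher in every drug-treated library than in any Control library. As a percentage of Acta2, Acta1 was 12.4, 5.10 and 20.2% in the Melphalan libraries, 6.15, 8.65 and 7.10% in the Mel+MSC libraries and 19.9, 34.5 and 16.5% in the MSC+Mel libraries, against 0.592, 0.876 and 1.21% in Control. The log2 ratio of Acta1 to Acta2, with 1 FPKM added to each, averaged -3.06 ± 0.88 in Melphalan, -3.60 ± 0.24 in Mel+MSC and -2.08 ± 0.52 in MSC+Mel, against -5.89 ± 0.44 in Control (SD, n = 3 each). An exact permutation test over all 369600 ways to assign the libraries to 4 groups gave p = 0.00182. The ratio holds the Acta1 level already tested above, so this p is not separate evidence. Both genes were also chosen with earlier results of these data known. For a single pair of groups, 3 libraries against 3 cannot go below p = 0.1 in a two-sided exact test. That smallest value was reached by Melphalan, Mel+MSC and MSC+Mel against Control, with differences of 2.83, 2.29 and 3.81, and by MSC+Mel against Mel+MSC, with 1.52 (exact p = 0.1 and Benjamini-Hochberg adjusted p = 0.15 over the 6 pairs in each case). MSC+Mel against Melphalan differed by 0.98 (exact p = 0.3) and Mel+MSC against Melphalan by -0.54 (exact p = 0.5), and the libraries of these pairs overlapped. Of the summed level of the muscle actins Acta2, Actg2 and Acta1, the share of Acta1 lay between 2.96 and 9.70% in Melphalan, between 3.28 and 4.43% in Mel+MSC and between 7.78 and 16.7% in MSC+Mel, against 0.294 and 0.602% as the lowest and highest Control values.

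**Figure D1:**
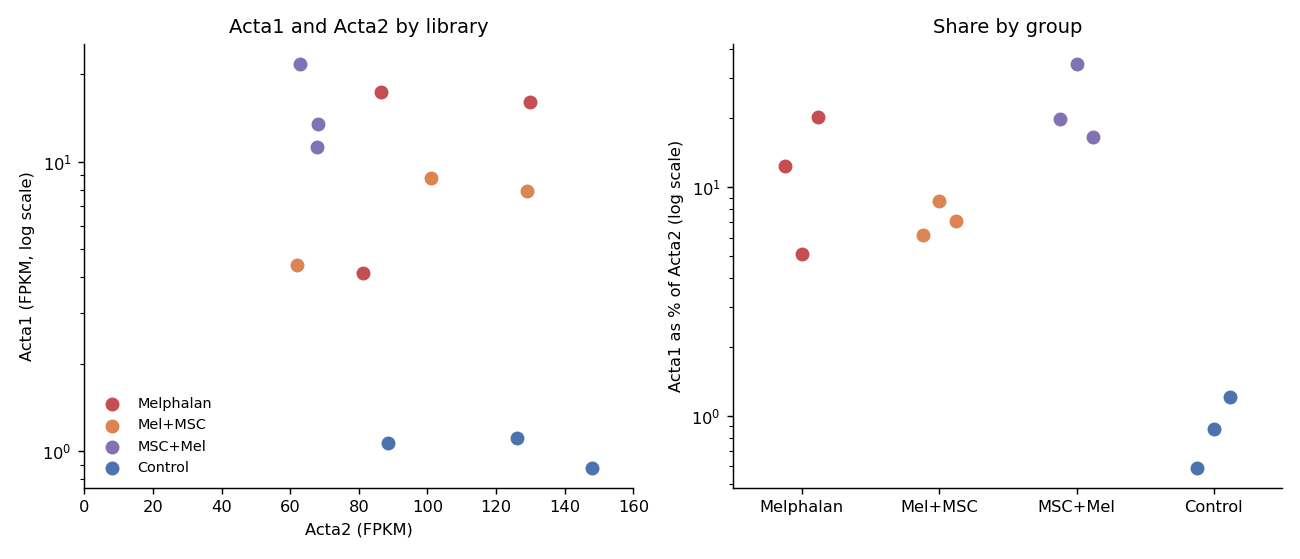
Left, Acta1 (FPKM, log scale) against Acta2 (FPKM) in the 12 libraries. Right, Acta1 as a percentage of Acta2 (log scale), with 1 point per library. The 9 drug-treated libraries lie at 5.10% or more and the 3 Control libraries at 1.21% or less, while the Acta2 levels of the groups overlap, except for MSC+Mel against Melphalan and against Control.

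The actins share much of their coding sequence. Of the 50-base windows of the Acta1 transcript, none occurred in Acta2, Actg2 or the cardiac actin Actc1, and 1.83% occurred in the cytoplasmic actins Actb or Actg1. For Acta2 the share was 0.326% over the other 5 actins and for Actg2 it was 0. The labels give no read length, and how the authors' tools split fragments that fit several actins was not tested. Gm20388, a gene on the opposite strand that spans Acta1, shares none of its exon bases with it.

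The smooth muscle actins Acta2 and Actg2 followed each other closely. Acta2 encodes the alpha actin of vascular and other smooth muscle (chromosome 19, 34241090 to 34255590, minus strand). Its level was 129.5, 81.3 and 86.4 FPKM in Melphalan, 129, 101 and 61.9 FPKM in Mel+MSC and 68.0, 62.9 and 67.9 FPKM in MSC+Mel, against 148, 126 and 88.6 FPKM in Control. Mel+MSC 3 was lowest and Control 1 highest, and the MSC+Mel libraries, with a coefficient of variation of 4.38%, lay below all Control and all Melphalan libraries. Actg2 encodes the gamma actin of enteric smooth muscle (chromosome 6, 83512905 to 83536265, minus strand). It stood at 119, 54.5 and 75.8 FPKM in Melphalan, at 104, 87.5 and 61.6 FPKM in Mel+MSC and at 66.4, 45.6 and 64.7 FPKM in MSC+Mel, against 149, 126 and 88.4 FPKM in Control. The MSC+Mel libraries were below every Control library but overlapped those of Melphalan and Mel+MSC.

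Myh11, the smooth muscle myosin heavy chain (chromosome 16, 14194535 to 14291372, minus strand), showed its widest spread within Control. It measured 29.0, 22.7 and 23.6 FPKM in Melphalan, 33.8, 28.9 and 37.5 FPKM in Mel+MSC and 25.6, 25.3 and 31.0 FPKM in MSC+Mel, against 64.9, 32.9 and 18.4 FPKM in Control. Control held both the highest and the lowest of the 12 values, with a coefficient of variation of 61.4%, against 13.6% or less in each other group. Mylk, the myosin light chain kinase that starts contraction (chromosome 16, 34745210 to 35002420, plus strand), was the steadiest member, with its highest library only 1.46 times its lowest. It measured 93.5, 92.0 and 106 FPKM in Melphalan, 115, 87.7 and 84.2 FPKM in Mel+MSC and 87.3, 87.3 and 88.1 FPKM in MSC+Mel, against 114, 82.5 and 78.6 FPKM in Control. Mylk also encodes longer kinase forms and telokin, which a value per gene does not separate.

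Desmin and synemin form the intermediate filaments of muscle. Des (chromosome 1, 75360329 to 75368579, plus strand) stood at 52.0, 51.5 and 42.8 FPKM in Melphalan, at 62.5, 41.8 and 35.0 FPKM in Mel+MSC and at 27.2, 20.6 and 24.5 FPKM in MSC+Mel, against 56.3, 50.2 and 40.4 FPKM in Control. The 3 MSC+Mel libraries were the lowest of the 12, and the Melphalan and Control groups covered nearly the same range. Synm, a large protein that joins desmin filaments to the cell membrane (chromosome 7, 67730160 to 67759742, minus strand), measured 10.6, 5.61 and 7.34 FPKM in Melphalan, 9.30, 6.69 and 10.1 FPKM in Mel+MSC and 4.70, 3.32 and 4.34 FPKM in MSC+Mel, against 14.3, 7.92 and 6.59 FPKM in Control. Here too the MSC+Mel libraries were the lowest 3 of the 12. Synm shares 1.06% of its exon bases with Ttc23 on the opposite strand, which was at 2.04 to 5.48 FPKM.

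The other members bind actin. Tagln (transgelin or SM22, an actin-bundling protein of smooth muscle, chromosome 9, 45929619 to 45936058, minus strand) measured 61.8, 76.1 and 78.6 FPKM in Melphalan, 96.5, 76.7 and 25.4 FPKM in Mel+MSC and 40.4, 34.2 and 36.5 FPKM in MSC+Mel, against 49.0, 67.4 and 56.1 FPKM in Control. Mel+MSC held both its highest and its lowest library. Its exons overlap those of Pcsk7 on the opposite strand over 5.43% of their bases, and without a stated strand setting reads there cannot be told apart. Pcsk7 was at 11.9 to 34.8 FPKM. Cnn1 (calponin, which damps the myosin motor, chromosome 9, 22099216 to 22109630, plus strand) stood at 46.8, 17.4 and 26.3 FPKM in Melphalan, at 32.5, 35.1 and 33.8 FPKM in Mel+MSC and at 31.2, 24.8 and 37.4 FPKM in MSC+Mel, against 84.4, 54.7 and 24.5 FPKM in Control. The groups overlapped throughout. Lmod1 (leiomodin, which nucleates actin filaments in smooth muscle, chromosome 1, 135324807 to 135368065, plus strand) was the lowest of the smooth muscle genes. It measured 5.46, 3.23 and 4.16 FPKM in Melphalan, 5.28, 3.66 and 3.46 FPKM in Mel+MSC and 2.35, 2.73 and 2.18 FPKM in MSC+Mel, against 4.46, 3.44 and 2.99 FPKM in Control. The MSC+Mel libraries were its lowest 3.

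**Figure D2:**
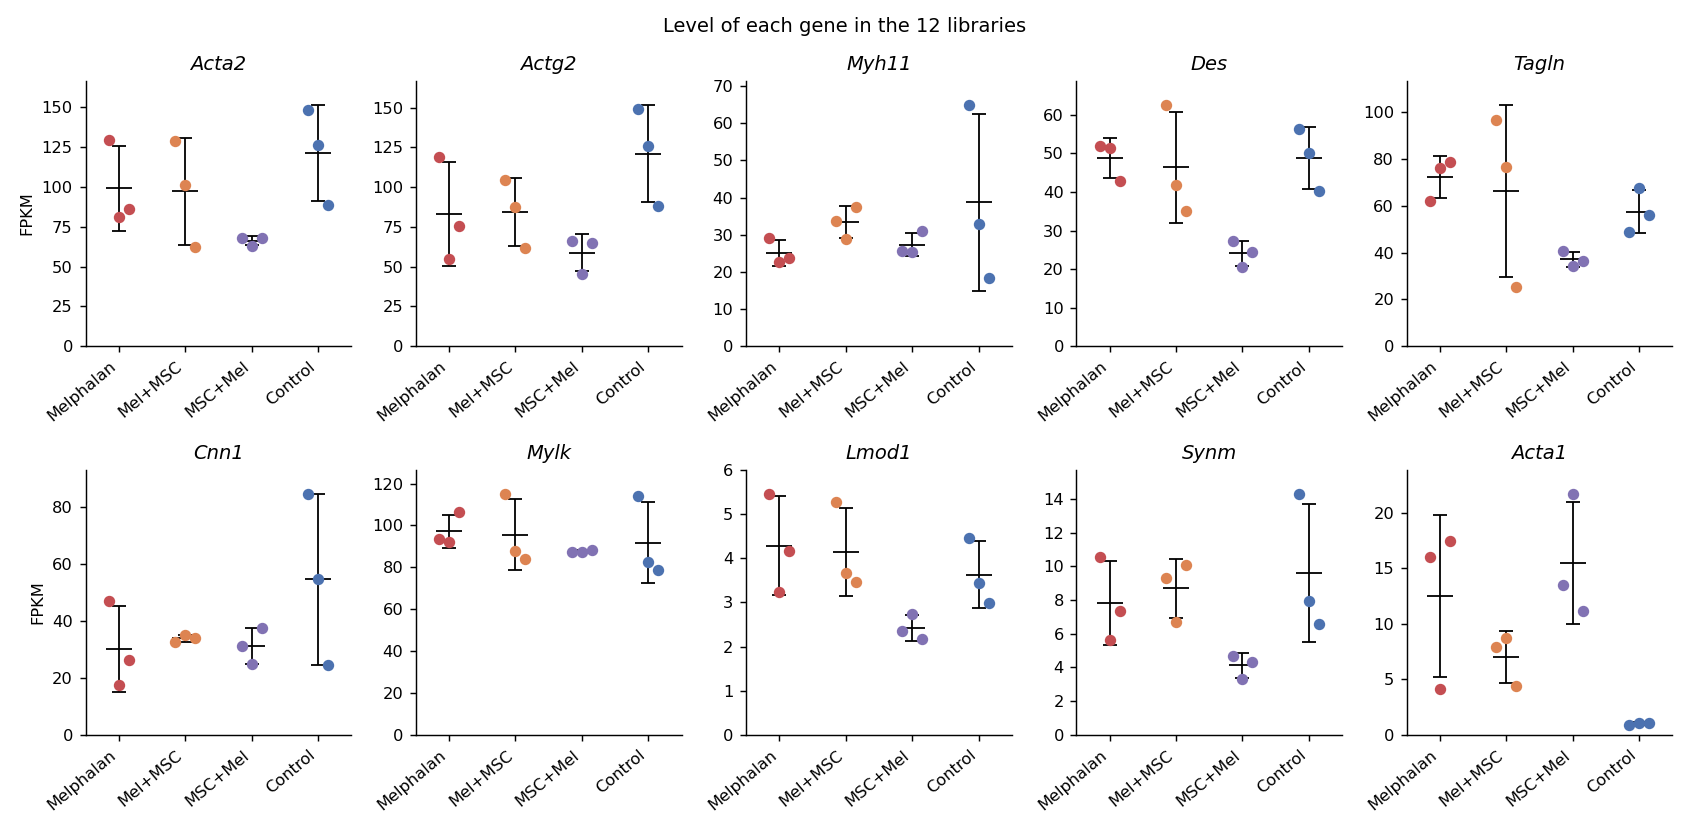
FPKM of the 10 genes in each library, with 1 panel per gene and its own axis from 0. Points are libraries and bars the mean and SD of the 3 libraries of a group. The MSC+Mel libraries lie close together at the low end for Des, Synm and Lmod1, and MSC+Mel was the tightest group over all tested genes too. For Acta1 the Control libraries lie near 1 FPKM, below all others.

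The smooth muscle genes tended to be high or low in the same libraries. Their summed level was 548, 404 and 451 FPKM in Melphalan, 588, 469 and 353 FPKM in Mel+MSC and 353, 307 and 357 FPKM in MSC+Mel, against 685, 551 and 405 FPKM in Control. The MSC+Mel sums averaged 339 ± 27.8 FPKM, against 547 ± 140 FPKM in Control (SD, n = 3 each), with no overlap. Control 1 was the highest library for 5 of the 9 genes and Mel+MSC 1 for 3, and all 3 MSC+Mel libraries were in the lower 6 of the 12 for 6 genes. The MSC+Mel mean was the lowest of the 4 group means for 7 of the 9, the others being Myh11 and Cnn1, whose lowest mean was in Melphalan. The Control mean was the highest for 6. How many of all tested genes show such orders was not counted, so these counts only describe the 9 genes. MSC+Mel was also the tightest group in general. Over all tested genes the mean variance among the libraries of a group, on the log2 scale, was 0.0806 in MSC+Mel. It was 0.42 in Melphalan, 0.293 in Mel+MSC and 0.176 in Control. The main fit uses 1 variance per gene for all 4 groups. Over the 12 libraries the 36 pairs of smooth muscle genes had a median Pearson r of 0.60 (-0.19 to 0.93) on the log2 scale. With the group means taken off it was 0.58 (-0.34 to 0.90), and all points of a library share its depth and scaling. The 9 pairs of Acta1 with a smooth muscle gene had a median r of -0.37 (-0.51 to 0.10), and 0.26 (-0.07 to 0.60) with the group means taken off.

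Melphalan against Control compared the drug alone with Control. Of the smooth muscle genes, 0 of 9 passed the test, where 171 of 12847 genes did (1.33%, and 73 genes with a replicate block), and 0 of the 9 had an unadjusted p under 0.05, where 18.2% of all tested genes had. The libraries of the 2 groups overlapped for each of the 9, where 10.7% of all tested genes were lower in Melphalan without overlap. The fitted log2 fold changes ran from -0.78 for Cnn1 (95% interval -1.70 to 0.14) to 0.33 for Tagln (-0.52 to 1.17), with 5 below 0 (6 to 8 under the other scalings), where 47.5% of all tested genes were, and a median of -0.23, beside 0.03 over all tested genes. Leaving out 1 library moved the median to 0.06 (Control 1), -0.04 (Melphalan 2), -0.44 (Control 3) or -0.45 (Melphalan 1). Acta1 was the only member called here. Among all tested genes 0.498% were called higher, and 8.82% were higher with no overlap between the groups, as Acta1 was.

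Mel+MSC against Melphalan asked about the cells added to the drug. 0 of the 10 members passed, where 20 of all tested genes did (0.156%), and 0 of the 10 had an unadjusted p under 0.05, where 13.6% of all tested genes had. The fitted changes of the smooth muscle genes ran from -0.32 for Tagln (95% interval -1.16 to 0.53) to 0.40 for Myh11 (-0.35 to 1.15), with 5 of 9 below 0 (50.9% of all tested genes) and a median of -0.03, beside -0.01 over all tested genes. Under quantile normalization 3 of 9 were below 0, and 1 of 9 with each library rescaled to the same total. Without Mel+MSC 3 all 9 were above 0, with a median of 0.23, and the fitted change of Tagln was 0.26. Without Melphalan 2, by contrast, 8 of 9 were below 0, with a median of -0.07. The median was 0.15 without Melphalan 1, -0.17 without Mel+MSC 1, 0.03 without Melphalan 3 and 0.02 without Mel+MSC 2, so its sign rests on single libraries.

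MSC+Mel against Melphalan was the comparison in which the smooth muscle genes came nearest to a call. 0 of 9 passed, where 159 of all tested genes did (1.24%). Des had 27.2, 20.6 and 24.5 FPKM in MSC+Mel, against 52.0, 51.5 and 42.8 FPKM in Melphalan (log2 fold change -0.99, SE 0.22, limma adjusted p = 0.0553). Lmod1 was at -0.61 (SE 0.21, adjusted p = 0.14), Synm at -0.76 (SE 0.29, 0.162) and Tagln at -0.94 (SE 0.38, 0.187). These 4 had an unadjusted p under 0.05 in the lower direction, as had 10.9% of all tested genes. The libraries did not overlap, with MSC+Mel lower, for these 4 and for Acta2 (-0.54, adjusted p = 0.291) and Mylk (-0.15, adjusted p = 0.669), which makes 6 of 9, where 17.2% of all tested genes did the same. The sign of Mylk turned to 0.14 under quantile normalization and to 0.28 with each library rescaled to the same total. Cnn1 differed by 0.14 (95% interval -0.78 to 1.05), and by -0.19 without Melphalan 2. Fitted changes were below 0 for 7 of the 9 (6 under quantile normalization or rescaling to the same total) and for 54.1% of all tested genes. The median of the 9 was -0.54, beside -0.05 over all tested genes, -0.70 beside -0.02 without Melphalan 2, and -0.34 beside -0.06 without Melphalan 1. A fit on the 6 libraries of these groups alone called Des (adjusted p = 0.0348) and Tagln (0.0351).

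MSC+Mel against Mel+MSC set the groups that had received both agents beside each other. 0 of the 10 members passed, where 1 gene in all did (0.00778%). All 9 smooth muscle genes had a fitted change below 0 (8 under quantile normalization and 7 with each library rescaled to the same total), as had 51.4% of all tested genes, with a median of -0.50 beside -0.01 over all tested genes. Des (-0.89, SE 0.22, limma adjusted p = 0.242), Synm (-0.91, SE 0.29, 0.298) and Lmod1 (-0.57, SE 0.21, 0.358) had an unadjusted p under 0.05 in the lower direction, as had 6.89% of all tested genes, and did not overlap, as did 11.8%. Mylk was at -0.11 (95% interval -0.53 to 0.30), and at 0.12 under quantile normalization and 0.17 with each library rescaled to the same total. Without Mel+MSC 3 the same fit called 398 genes, among them Des (-1.06, adjusted p = 0.038) and Tagln, and the median of the 9 was -0.71. Without Mel+MSC 1 the median was -0.27, with 8 of 9 below 0. The summed level of the 9 genes in Mel+MSC 3 was 353 FPKM, against 588 and 469 FPKM in the other Mel+MSC libraries. In this library 6 of the 9 genes (Acta2, Actg2, Des, Tagln, Mylk and Lmod1) and Acta1 were at their lowest within Mel+MSC.

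Mel+MSC against Control called 0 of 12847 genes (0%), by limma, and 694 had an unadjusted p under 0.05. Of the smooth muscle genes 0 of 9 had an unadjusted p under 0.05 and the libraries overlapped for all 9, where 5.07% of all tested genes were lower without overlap. The fitted changes ran from -0.51 for Actg2 (95% interval -1.20 to 0.17) to 0.14 for Lmod1 (-0.32 to 0.61), with 6 of 9 below 0 (8 under quantile normalization or rescaling to the same total, and 47.9% of all tested genes) and a median of -0.08 beside 0.01 over all tested genes. Without Mel+MSC 1 all 9 were below 0, with a median of -0.34, and without Control 3 the median was -0.29. Without Control 1 it was 0, with 4 of 9 below 0, and it was -0.05 without Mel+MSC 2 and -0.05 without Mel+MSC 3. Lmod1 was at -0.01 without Mel+MSC 1. Acta1 was higher here without overlap, as were 5.4% of all tested genes.

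MSC+Mel against Control compared both agents, in the group of that name, with Control. 0 of the 9 smooth muscle genes passed, where 22 of all tested genes did (0.171%), all 9 had a fitted change below 0 (8 under quantile normalization or rescaling to the same total, and 51.2% of all tested genes), and the median was -0.64 beside -0.01 over all tested genes. It was -1.04 without Control 3 and between -0.78 and -0.56 without any other 1 of the 6 libraries, and without Control 1 7 of 9 were below 0. The largest were Actg2 (-1.01, SE 0.31, limma adjusted p = 0.255), Des (-0.99, SE 0.22, 0.136), Synm (-0.99, SE 0.29, 0.231) and Acta2 (-0.83, SE 0.29, 0.312), which had an unadjusted p under 0.05 in the lower direction, as had 6.13% of all tested genes. With Tagln (-0.61, adjusted p = 0.593) and Lmod1 (-0.43, adjusted p = 0.471), 6 of 9 did not overlap with Control, where 14.4% of all tested genes were lower in that way. Mylk was at -0.05 (95% interval -0.46 to 0.37), and above 0 under quantile normalization, with each library rescaled to the same total, and without Control 1. Acta1, the member that passed, went the other way (0.0623% of all tested genes were called higher and 13.4% were higher without overlap). The comparisons with Control share the Control libraries, and those with Melphalan share the Melphalan libraries, so their values are not independent of each other.

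**Figure D3:**
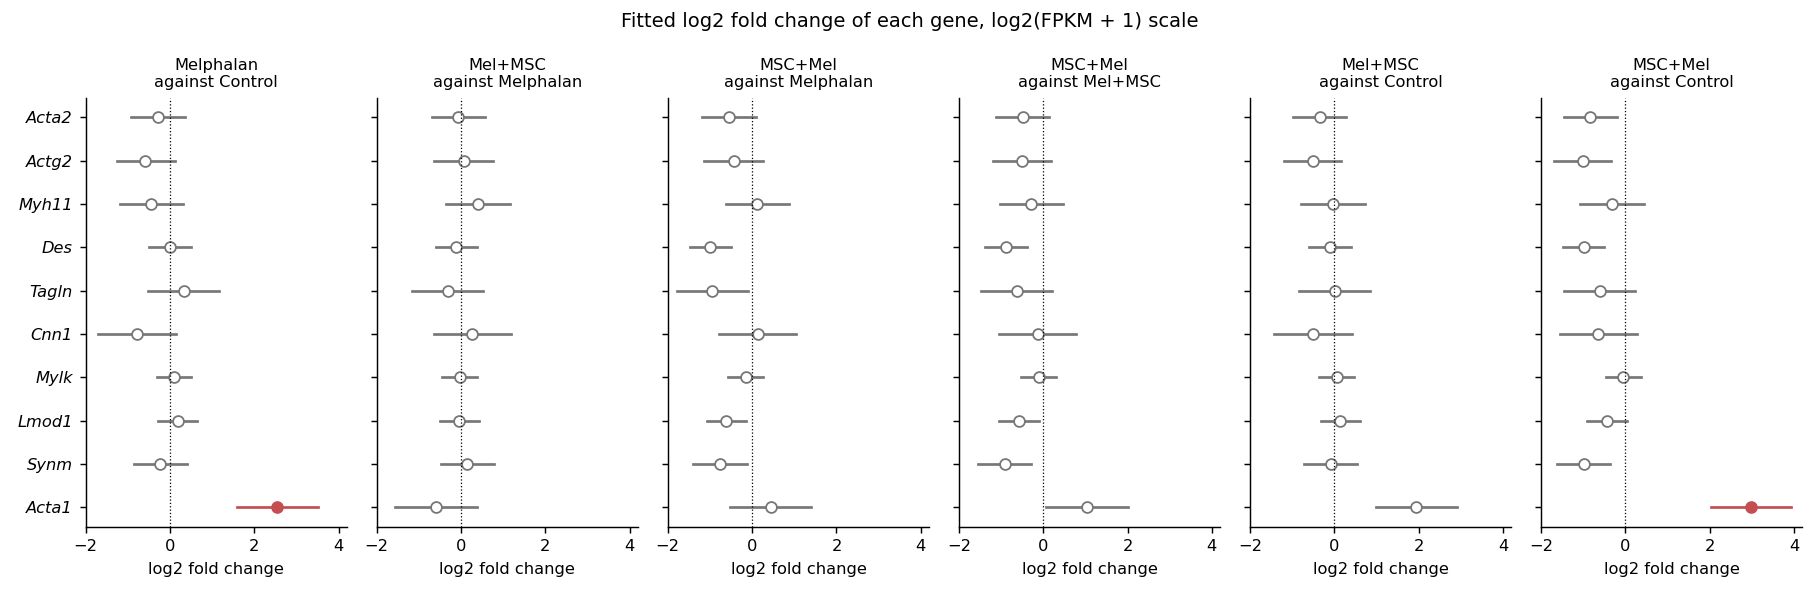
Fitted log2 fold change of each gene on the log2(FPKM + 1) scale in the 6 comparisons, with 95% intervals that are not adjusted for the number of tests. Filled red points passed an adjusted p under 0.05: Acta1 in Melphalan against Control (2.54) and in MSC+Mel against Control (2.98). In the comparisons of MSC+Mel with the other groups most smooth muscle genes lie left of 0.

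Scaling bore on these medians. With each library rescaled to the same total, the median of all tested genes moved to -0.17 in Melphalan against Control, 0.11 in Mel+MSC against Melphalan, 0.32 in MSC+Mel against Melphalan, 0.24 in MSC+Mel against Mel+MSC and 0.16 in MSC+Mel against Control. Taken relative to the median of all tested genes, the median of the smooth muscle genes was -0.44, -0.46 and -0.62 in MSC+Mel against Melphalan, Mel+MSC and Control with that rescaling, against -0.49, -0.49 and -0.63 as deposited. Under quantile normalization these values were -0.29, -0.28 and -0.63. Acta1 stayed between 2.46 and 2.57 in Melphalan against Control and between 2.98 and 3.44 in MSC+Mel against Control over the scalings tried.

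Other genes of the contractile pathway were set beside the members. With 0 to 1.33% of all tested genes called in a comparison, a list of their size would hold fewer than 1 called gene at the same share, so a count of 0 says little about the list. In the list of 28 further genes of the contractile apparatus (such as light chains, tropomyosins, caldesmon, filamins and LIM proteins), all tested, 0 passed in any comparison, and the median was -0.43 in MSC+Mel against Melphalan, -0.19 in MSC+Mel against Mel+MSC and -0.33 in MSC+Mel against Control. The first of these was -0.02 beside 0.32 over all tested genes, and the second 0.00 beside 0.24, with each library rescaled to the same total. Taken relative to all tested genes, they were -0.33 and -0.24 with that rescaling, against -0.38 and -0.17 as deposited. The median in MSC+Mel against Mel+MSC was -0.11 without Mel+MSC 1. Its most abundant genes were Myl6, the essential light chain shared with non-muscle myosin (775 ± 262 FPKM in Melphalan, 713 ± 518 in Mel+MSC, 326 ± 15.8 in MSC+Mel and 417 ± 161 in Control), Tpm1, a tropomyosin (208 ± 34.3, 203 ± 47.3, 154 ± 3.05 and 223 ± 7.96 FPKM in the same groups) and Tagln2, a transgelin of many cell types (103 ± 16.6, 65.2 ± 7.83, 71.6 ± 6.46 and 97.7 ± 16.2 FPKM). The 14 tested genes of dense bodies and intermediate filaments and the 22 of contraction signalling also had 0 calls, with medians between -0.18 and 0.03 over the 6 comparisons as deposited. Of 18 muscle transcription factors 16 were tested and 0 passed. Srf, the factor that binds CArG boxes, stood at 17.5 ± 1.09 FPKM in Melphalan, 20.4 ± 5.35 in Mel+MSC and 18.3 ± 2.28 in MSC+Mel, against 16.0 ± 3.03 in Control (F test adjusted p = 0.685, SD, n = 3 each).

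Because Acta1 is a gene of skeletal muscle, the other genes of striated muscle were counted. Of 33 such genes 7 reached the filter, 0 passed in any comparison, and 6 were at 0 in all 12 libraries: the fast myosin Myh4, the light chain Myl3, the fast troponin Tnnc2, parvalbumin (Pvalb) and the myogenic factors Myod1 and Myog. Other genes below the filter went both ways in Melphalan against Control. Tnni3 averaged 1.89 against 0.195 FPKM and Cacna1s 1.05 against 0.349 FPKM. Tnni2 averaged 0.835 against 1.13 FPKM and Casq1 0.017 against 0.228 FPKM. Atp2a1 was above 0 in the Melphalan libraries alone, at up to 0.089 FPKM. Melphalan 1 was the highest library for Mb (0.955 FPKM), Tnnc1 (0.95), Myh7 (0.69), Myl2 (0.571) and Myh6 (0.13). For Mb, Myh7, Myl2 and Myh6 the next highest was Mel+MSC 1, at 0.117, 0.59, 0.181 and 0.0746 FPKM. Other genes peaked elsewhere, as Tnni2 and Casq1 did in Control 3. The summed level of the 33 genes, without Acta1, was 30.4, 41.4 and 32.3 FPKM in Melphalan, 36.1, 27.6 and 13.7 FPKM in Mel+MSC and 18.7, 14.7 and 15.7 FPKM in MSC+Mel, against 26.3, 25.2 and 32.9 FPKM in Control. The MSC+Mel libraries were below every Control library in this sum. The median fold change of the 7 tested genes was -0.44 in MSC+Mel against Control (-0.45 and -0.34 under the quantile and equal-total scalings), but -0.07 without Control 3. Ckm, the muscle creatine kinase, had 3.37 ± 1.02 FPKM in Melphalan, 6.03 ± 2.35 in Mel+MSC and 3.47 ± 0.347 in MSC+Mel, against 9.17 ± 2.45 in Control (F test adjusted p = 0.103, SD, n = 3 each). Ckm was thus lowest in mean in Melphalan, where the other most abundant genes of the list had their highest mean. Eno3, the enolase of muscle, had 11 ± 7.37 FPKM in Melphalan, 6.17 ± 2.08 in Mel+MSC and 3.31 ± 1.02 in MSC+Mel, against 5.77 ± 2.11 in Control (adjusted p = 0.246), and 19.4 FPKM in Melphalan 2. Tnnt2, the troponin T of heart muscle, had 5.86 ± 0.963 FPKM in Melphalan, 4.51 ± 4.26 in Mel+MSC and 1.74 ± 0.549 in MSC+Mel, against 2.96 ± 1.95 in Control (adjusted p = 0.368). Ckm did not overlap between MSC+Mel (3.81, 3.12 and 3.48 FPKM) and Control (11.9, 8.61 and 7.05 FPKM), while Eno3 and Tnnt2 did. The gap between MSC+Mel and Control in the summed level thus owes much to Ckm. Which cells Acta1 came from was not tested. The cytoplasmic actin Actb stood at 2900 ± 641 FPKM in Melphalan, 2110 ± 91.7 in Mel+MSC and 1820 ± 393 in MSC+Mel, against 1440 ± 207 in Control (F test adjusted p = 0.201).

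Marker lists of the other cells of the gut wall gave 1 call in all, that of Vip in Melphalan against Control among 11 tested genes of enteric neurons. Vip, the vasoactive intestinal peptide that relaxes gut muscle, measured 4.95, 2.36 and 2.39 FPKM in Melphalan, 4.36, 5.40 and 6.31 FPKM in Mel+MSC and 12.1, 10.4 and 15.8 FPKM in MSC+Mel, against 29.8, 25.7 and 6.32 FPKM in Control. The log2 fold change in Melphalan against Control was -2.16 (SE 0.46, limma adjusted p = 0.0469), and the adjusted p was 0.189 without Control 1, 0.212 without Control 2 and 0.0542, 0.067 and 0.148 without Melphalan 1, 2 and 3. Without Control 3 it was 0.00193. The call was also lost under quantile normalization (0.0522), with each library rescaled to the same total (0.0574), with no filter (0.117), with a replicate block (0.0795) and in a fit on the 6 libraries compared (0.219). For the cells that share markers or position with smooth muscle, the summed levels of 8 pericyte markers ran from 45.1 to 52.2 FPKM in MSC+Mel and from 45.5 to 93.9 FPKM in Control. Those of 6 markers of interstitial cells of Cajal, the pacemakers of the gut, ran from 32.4 to 41.5 FPKM in MSC+Mel and from 52.7 to 65.7 FPKM in Control, without overlap. Most of this sum was Kitl, at 30.1, 21.9 and 28 FPKM in MSC+Mel and 49, 42.5 and 42.6 FPKM in Control. Each of the other markers on this list, Kit among them, overlapped between MSC+Mel and Control. The sums of the 17 enteric neuron markers, at 35.2 to 40.8 FPKM in MSC+Mel and 43.8 to 83.5 FPKM in Control, and of the 8 markers of enteric glia, at 34.3 to 71.1 FPKM in MSC+Mel and 80.6 to 109 FPKM in Control, were also lower without overlap, as was the sum of the smooth muscle genes. Most of the glia sum was Erbb3, at 31.9, 47.9 and 67.7 FPKM in MSC+Mel and 79.5, 76.5 and 105 FPKM in Control. The sums of 13 fibroblast markers ran from 162 to 259 FPKM in MSC+Mel and from 184 to 240 FPKM in Control, and those of 12 endothelial markers from 23.5 to 41.3 FPKM in MSC+Mel and from 22.6 to 29.9 FPKM in Control. In MSC+Mel against Mel+MSC, where all 9 smooth muscle genes had a fitted change below 0, the 10 tested fibroblast markers and the 10 tested endothelial markers all had one above 0, with medians of 0.82 and 0.76. The part of such cells in the levels of the smooth muscle genes was not tested.

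**Figure D4:**
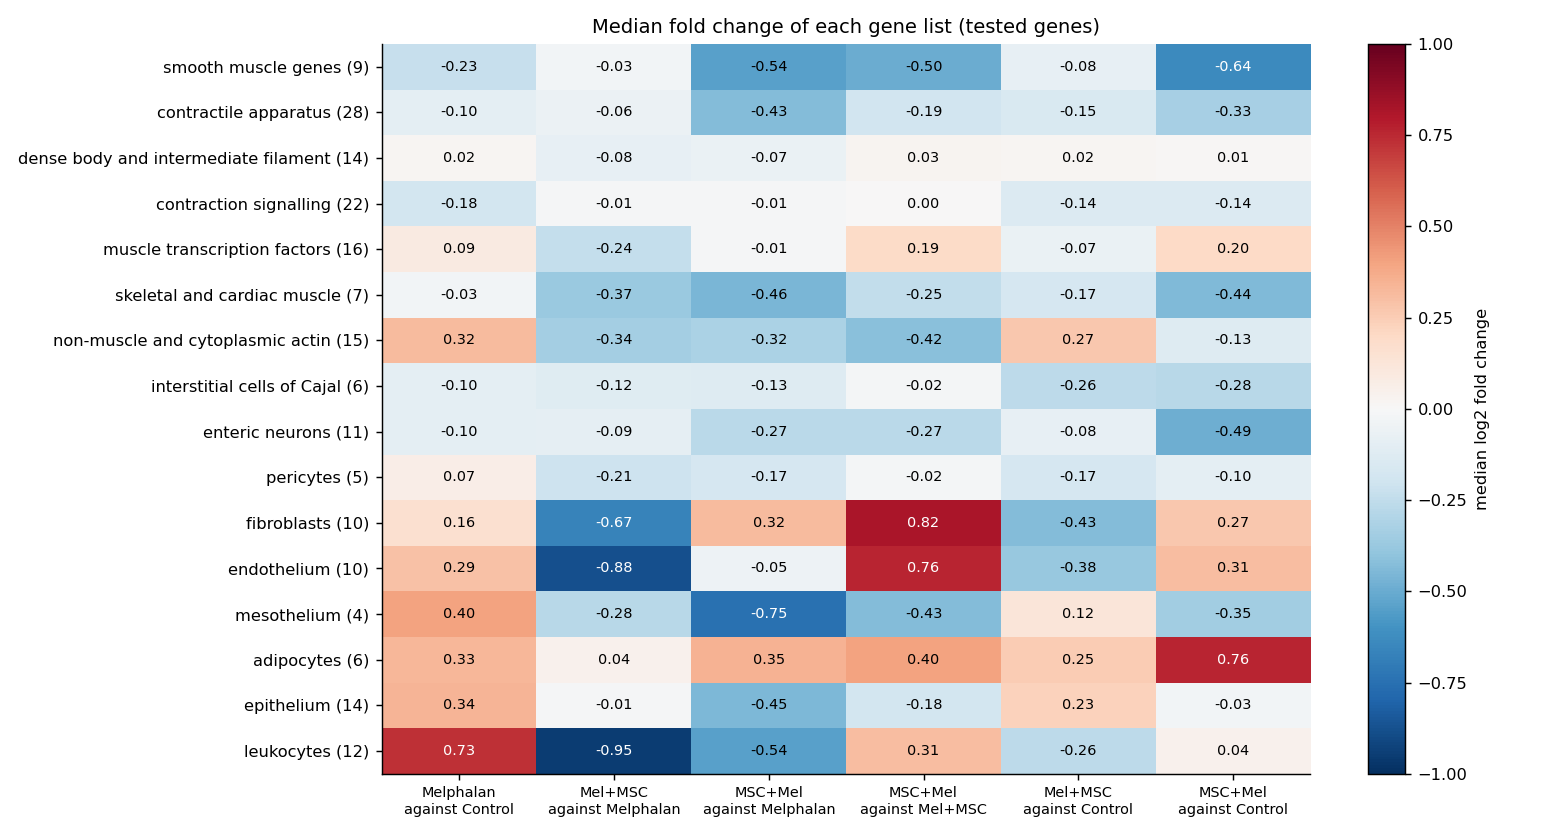
Median fitted log2 fold change of the 9 smooth muscle genes and of each list with at least 4 tested genes, in the 6 comparisons. Numbers in brackets count the tested genes. The smooth muscle row stands at -0.54, -0.50 and -0.64 in the comparisons of MSC+Mel with Melphalan, Mel+MSC and Control, in which the fibroblast row is above 0.

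Genes other than the 10 were ranked by how closely their levels ran with the members over the 12 libraries on the log2 scale. Pdlim3, Jph2 and Cald1 are also on the list of the contractile apparatus. With the mean standardised profile of the 9 smooth muscle genes, the 5 closest were Pdlim3, a muscle LIM protein of the Z disc and dense bodies (Pearson r 0.974), the kinase Dmpk (0.949), Jph2, a junctophilin that ties the sarcoplasmic reticulum to the membrane (0.932), the sodium pump regulator Fxyd6 (0.927) and Cald1, caldesmon (0.91). All 5 had their lowest group mean in MSC+Mel and their highest in Control, as for Pdlim3 with 12 FPKM in Melphalan, 11.4 in Mel+MSC and 7.15 in MSC+Mel, against 14.7 in Control. With Acta1 the 5 closest were Aqp3, a channel for water and glycerol (0.949), the peroxisomal oxidase Acox2 (0.946), Oas1e (0.931), the ribosome maturation factor Efl1 (0.92) and Scin, an actin-severing protein (0.915). All 5 had their lowest group mean in Control. Aqp3 averaged 34.5 FPKM in Melphalan, 17.7 in Mel+MSC and 33.1 in MSC+Mel, against 4.57 in Control. These rankings are descriptions of 12 libraries that share their groups, depth and scaling. The group order of the closest genes follows largely from the ranking that picked them, so it is not separate evidence.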

How the data were processed

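RNA sequencing of mouse small intestine in 12 libraries was used as deposited. Per the labels' protocols, RNA came from the QIAamp AllPrep RNA Mini Kit and the libraries from TruSeq RNA kits, without a word on strand. STAR, Cufflinks and Cuffnorm were the authors' tools and mm10 and GRCm38 the builds, per the submitters' processing notes. Versions, annotation release and the scaling between libraries are not given in the sources used here. As deposited, a typical gene stood at nearly the same level in each library (median-of-ratios factors 0.986 to 1.03). The summed FPKM of a library ran from 516851 to 796980. The deposited FPKM values are not counts, so the depth per library is unknown. Steps of 1 fragment in low genes put the relative depth between 0.707 (Melphalan 1) and 1.15 (Control 2) of that of Control 1, but only 15 genes carried that step in Mel+MSC 3.

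The 10 genes were found by symbol, and coordinates are from GENCODE M21 on GRCm38. A gene was tested if 3 or more libraries reached 1 FPKM, which held for 12847 genes. Their log2(FPKM + 1) values went into 1 fit of limma 3.58.1 (R 4.3.3) over all 12 libraries, with 1 mean per group, 8 residual degrees of freedom and an intensity trend. Benjamini-Hochberg adjustment ran over all tested genes in each of 6 comparisons and in an F test over the 4 groups. The fit was tested on simulated data. No replicate block was used in the main fit, since the labels do not say what a number marks. Same-numbered libraries deviated together (r over 0.1 in all 3 pairs) in Melphalan and Control and in no other 2 groups, so blocked values are given beside that comparison. Python 3.11.15 with matplotlib 3.10.9 drew the figures. Alternatives were a pseudocount of 0.1, other filters and scalings, library weights, a replicate block, a fit on the 6 libraries compared and leaving out each library.

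The members and the gene lists were chosen with earlier results of these data known. Text names all members, at most 3 genes per list with the highest mean FPKM and those called, and the 5 genes most alike. Srf and the named striated genes below the filter, Actc1 among them, were singled out after their values had been seen. Lists were described by counts and medians without a set test. Promoter windows are those of RefSeq on GRCm38.p6.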

Additional observations from a re-analysis of the deposited data

How the results depend on the processing

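The direction of Acta1 against Control held under every alternative, and its calls did not. The 1 member called (Acta1) became 0 in Melphalan against Control with no filter, with a replicate block or in a fit on the 6 libraries compared, and 0 in MSC+Mel against Control and in the F test with no filter or with a replicate block. Leaving out single libraries gave 0 to 1 members called in Melphalan against Control, 0 in MSC+Mel against Control, 0 to 2 in MSC+Mel against Mel+MSC and 0 to 3 in the F test. Library weights, which ran from 0.182 for Mel+MSC 3 to 5.13 for Mel+MSC 2, called 2 members in Melphalan against Control, 5 in MSC+Mel against Melphalan, 7 in MSC+Mel against Mel+MSC, 1 in Mel+MSC against Control, 5 in MSC+Mel against Control and 7 in the F test. The fit on 6 libraries called 2 members in MSC+Mel against Melphalan. The cause of these changes was not tested.

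Counts of genes called moved more. For Melphalan against Control, Mel+MSC against Melphalan, MSC+Mel against Melphalan, MSC+Mel against Mel+MSC, Mel+MSC against Control, MSC+Mel against Control and the F test, library weights called 3543, 2282, 5417, 5051, 226, 952 and 7165 genes, no filter 63, 1, 50, 2, 2, a count near that reported, and 29, and a replicate block 73, 3, 20, 0, 1, 5 and 17. In the same order, leaving out single libraries gave 9 to 420, 0 to 16, 6 to 401, 0 to 398, 0 to 1, 0 to 8 and 2 to 470. The fit on 6 libraries called 4 genes in Melphalan against Control, 0 in Mel+MSC against Melphalan, 636 in MSC+Mel against Melphalan and 55 in MSC+Mel against Control. Rescaling every library to the same total (TPM) called 5 in Mel+MSC against Melphalan, 402 in MSC+Mel against Melphalan, 0 in MSC+Mel against Mel+MSC and 53 in MSC+Mel against Control, quantile normalization 13 in Mel+MSC against Melphalan, 0 in MSC+Mel against Mel+MSC, 52 in MSC+Mel against Control and 121 in the F test. A mean of 5 FPKM or more gave 13 in Mel+MSC against Melphalan and 0 in MSC+Mel against Mel+MSC, and a pseudocount of 0.1 gave 2 in MSC+Mel against Mel+MSC and 1 in Mel+MSC against Control. The share called higher was 37.4% as deposited and 23.7% as TPM in Melphalan against Control, 70% and 100% in Mel+MSC against Melphalan, 66% and 90.8% in MSC+Mel against Melphalan, and 36.4% and 71.7% (48.1% under quantile normalization) in MSC+Mel against Control.

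Small fold changes turned sign. Mylk in MSC+Mel turned against Melphalan (0.28 as TPM, 0.14 under quantile normalization), against Mel+MSC (0.17 as TPM, 0.12 under quantile normalization, -0.20 to 0.027 with single libraries left out) and against Control (0.14 as TPM, 0.032 under quantile normalization, -0.15 to 0.12 with single libraries left out). Acta1 in MSC+Mel against Melphalan was -0.056 with library weights and -0.16 to 0.76 with single libraries left out. Cnn1 in that comparison ran from -0.19 to 0.50, Tagln in Mel+MSC against Melphalan from -0.69 to 0.26 and Lmod1 in Mel+MSC against Control from -0.01 to 0.27. Same-numbered libraries correlated between -0.369 and 0.396 in their deviations, with 3 of 3 pairs over 0.1 in Melphalan and Control, where all 6 libraries correlated best with their own number, and 4 of 15 in the other pairs of groups. Some libraries of unlike number correlated more, as Control 1 with Mel+MSC 3 (0.462) and Control 3 with Mel+MSC 1 (0.366). Whether the numbers mark pairs in Melphalan and Control thus cannot be told from these correlations. Depth is unknown and limits the low values, among them Acta1 in Control.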

Other observations

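Actc1, the actin of heart muscle and the closest relative of Acta1 in striated muscle, did not reach the filter. It was at 0.11, 0 and 0 FPKM in Melphalan, 0.0586, 0 and 0 FPKM in Mel+MSC and 0.114, 0.841 and 0.433 FPKM in MSC+Mel, against 0.026, 0.203 and 0 FPKM in Control. MSC+Mel 2, its highest library, is also the highest for Acta1. Actc1 was singled out after its values had been seen.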
